A study of Mus musculus with 12 samples.

Results

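The comparison described here set the 2 arrays of experiment 1 at D2 against the 4 arrays of experiments 2 and 3 at D2, out of 12 arrays in the series. 3T3-L1 cells, a mouse preadipocyte line, were induced to become adipocytes at D0 with dexamethasone, 3-isobutyl-1-methylxanthine (IBMX, which raises cAMP) and insulin, and all 6 cultures received 100 nM of siRNA at the time of induction. Every numbered experiment held 1 culture with a control siRNA (Ctrl-siRNA) and 1 with an siRNA that targets the lincRNA *Paral1* (Paral1-siRNA). For experiments 1 to 3, total RNA was taken at D2. The other 6 arrays came from experiments 4, 5 and 6, in which the same siRNAs were transfected at D7 and RNA was collected at D9. All cells were the same line with no genetic change. The deposited labels name the reagent that the methods list as Paral1/2-siRNA, and the siRNA labels were not checked against the level of *Paral1*, which was not analysed here.

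Experiment 1 was chosen by its values on these arrays, in particular its low *Fabp4* and *Mki67*. The difference between experiment 1 and the other experiments is therefore given as a description, with its standard error but no test. The platform was the Affymetrix MTA 1.0 whole-transcript array, and values are the deposited log2 values, so a difference of 1 is a change of 2-fold. The siRNA was a covariate of each difference. A gene was called lower or higher in experiment 1 when the log2 difference was at least 1 in size and both of its arrays lay on the same side of all 4 others. All 30134 genes represented by a probe set with exactly 1 symbol were compared.

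After hormonal induction, confluent 3T3-L1 preadipocytes re-enter the cell cycle, a phase called mitotic clonal expansion. C/EBPβ and C/EBPδ are induced early by IBMX and dexamethasone and act upstream of PPARγ and C/EBPα, which switch on the genes of lipid uptake and storage. Genes of the cell cycle are thus a readout of expansion, and genes such as *Fabp4* are a readout of terminal differentiation. In RNA from a whole culture, fewer cells expressing a gene and less RNA per cell cannot be told apart.

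Experiment 1 stood apart from the other D2 experiments with both siRNAs. Between the Ctrl-siRNA arrays, 3037 genes (10.1%) differed by 2-fold or more between experiments 1 and 2 and 2626 (8.71%) between experiments 1 and 3, against 605 (2.01%) between experiments 2 and 3. The Paral1-siRNA arrays gave 10.7%, 8.67% and 2.21%. Pairs of D9 arrays of the same siRNA differed at 1.41% to 4.26% of genes. The first principal component of the 6 D2 arrays held 67.3% of their variance. The experiment 1 arrays also had narrower distributions, with interquartile ranges of 3.25 and 3.26 on the log2 scale against 3.48 to 3.58 on the other D2 arrays, and higher medians, 5.51 and 5.53 against 5.27 to 5.38. The part that these array properties have in the gene differences was not tested.

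In experiment 1, 1323 genes (4.39%) were called lower and 980 (3.25%) were called higher. The median difference over all genes was 0.18, so group medians below are read against 0.18. Of all 30134 genes, 22108 had positive and 8026 negative differences, and counts of signs below are read against these. Calls and medians also varied with the level of a gene, as given below with the oxidative phosphorylation genes. Among 8067 protein-coding genes with a mean D2 value above 6.5, the median was -0.07, and 12.8% were called lower and 5.18% higher. Calls and medians of lists made mostly of bright genes are read against these values as well. Lower genes were 57.4% of the calls with the deposited values, 75.6% after each array was centred on its median and 40.2% after arrays were also scaled to 1 interquartile range. These shares use the contrast that chose the experiment, and nothing is inferred from them. Of the genes whose groups did not overlap, *Slc38a2*, *Kidins220* and *Rad21* lay just inside the lower threshold and *Tbk1* just outside it, all at about -1. *Slc38a2* and *Tbk1* thus differ in their call but hardly in size. At the upper threshold, the gene models *Gm23619*, *Gm25474* and *Gm22047* lay just inside and *Gm25004*, *Obox4-ps15* and *Tm2d2* just outside, all at about 1.

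The 4 largest decreases were in genes of lipid uptake and storage. The fatty acid binding protein gene *Fabp4* was at 7.33 with Ctrl-siRNA and 6.79 with Paral1-siRNA in experiment 1, at 14.96 and 13.78 in experiment 2 and at 14.67 and 10.20 in experiment 3. Experiment 1 thus lay below every other D2 array, and the Paral1-siRNA array of experiment 3 was the nearest. The difference was -6.34 ± 1.07 (SE, 2 against 4 arrays), or 81.0-fold. *Lpl*, which encodes the lipase that releases fatty acids from circulating triglycerides, was at 7.79 and 7.04, 13.43 and 12.38, and 13.28 and 10.41 in the same order (difference -4.96 ± 0.59). *Cidec*, whose product enlarges lipid droplets, was at 8.82 and 7.42, 15.16 and 13.08, and 13.71 and 9.45 (difference -4.73 ± 1.10). For each of these genes the groups did not overlap, but the distance between experiment 1 and the Paral1-siRNA array of experiment 3 was much smaller than the mean difference. At D9 all 3 were above every D2 array, with *Fabp4* between 18.88 and 19.40.

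Of the 21 white adipocyte markers measured, 15 had negative differences, 6 were called lower and none was called higher, with a median of -1.15 against 0.18 for all genes. The other called markers were *Retn* (resistin, -3.84), the fatty acid transporter *Cd36* (-2.71) and the lipid droplet coat gene *Plin1* (-2.27). *Adipoq*, which encodes the hormone adiponectin, had values of 4.81 and 5.62 in experiment 1 and of 5.44 to 7.84 elsewhere at D2, and these ranges overlapped. The late markers *Lep*, *Pck1* and *Aqp7* had differences of 0.15, 0.22 and 0.25. Of the 21 markers, 7 were not above the brightest background probe set on any D2 array.

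Among the 27 genes of triglyceride synthesis and lipolysis, 4 were called lower and 1 higher, and their median was -0.03. The diacylglycerol acyltransferase *Dgat2*, which makes triglyceride, was at 8.49 and 7.66 in experiment 1, 14.33 and 12.20 in experiment 2 and 13.86 and 9.60 in experiment 3. *Fabp5* (-3.86), the glycerol phosphate acyltransferase *Gpat3* (-2.58) and *Abhd5* (-2.26), the activator of adipose triglyceride lipase, were also called lower, and the lipid droplet coat gene *Plin3* was called higher at 1.10. The probe sets of *Fabp5* and *Fabp5l2* (-3.44) followed each other closely, and array probes may not separate such near copies.

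**Figure D1:**
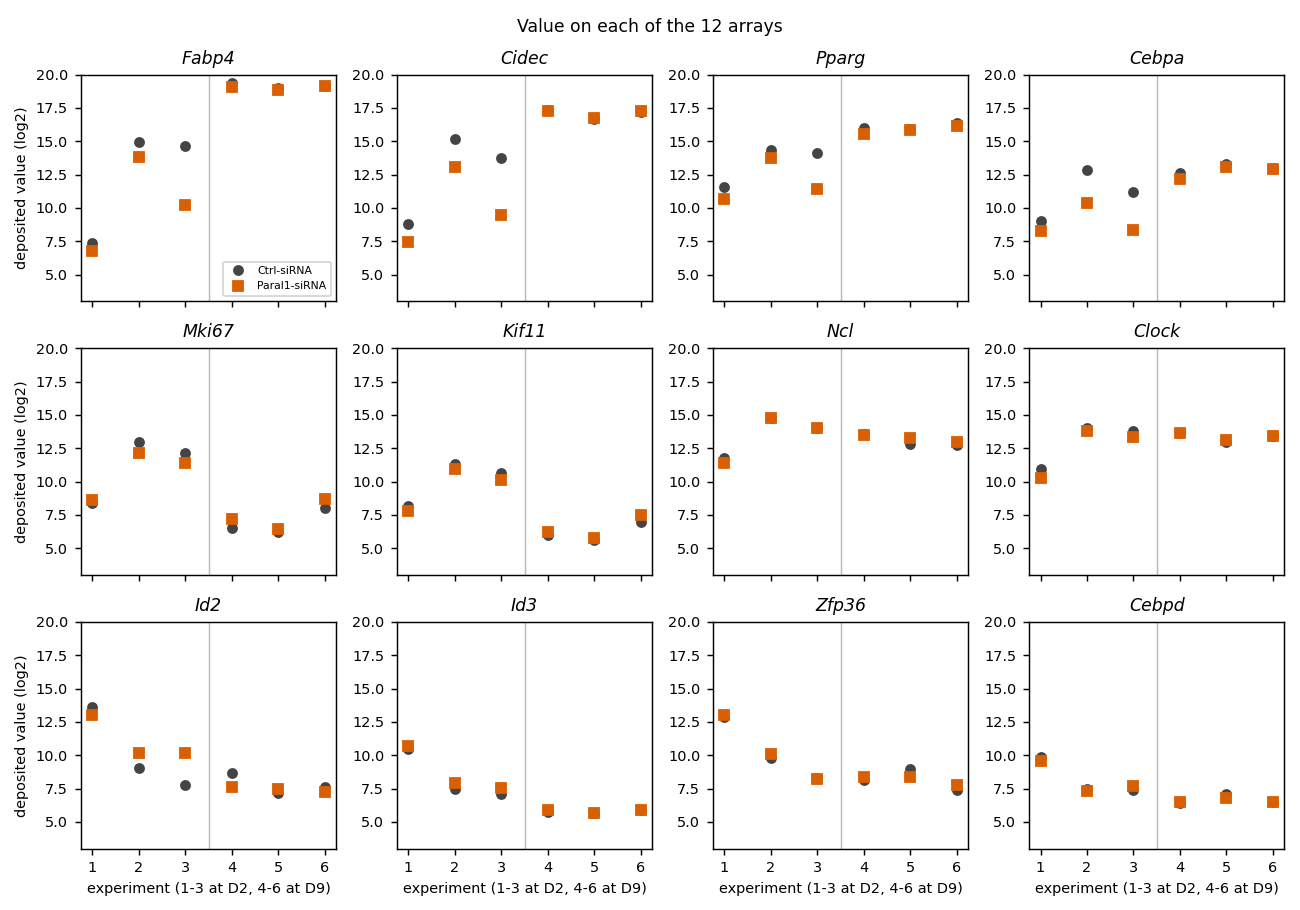
Deposited log2 value of 12 genes (vertical axis) in experiments 1 to 6 (horizontal axis; 1 to 3 at D2, 4 to 6 at D9), with a circle for the Ctrl-siRNA array and a square for the Paral1-siRNA array. *Fabp4* lay at 6.79 and 7.33 in experiment 1 and above 10 on every other array, whereas *Id2* lay at 13.05 and 13.62 in experiment 1 and at 10.19 or below on every other array.

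Of 24 adipogenic factors, 4 were called lower and 1 higher. *Pparg* was at 11.58 and 10.67 in experiment 1, 14.36 and 13.72 in experiment 2 and 14.09 and 11.43 in experiment 3, and *Cebpa* was at 9.04 and 8.26, 12.86 and 10.37, and 11.21 and 8.31. Both had mean differences below -2 (-2.27 ± 0.63 and -2.03 ± 0.81), but neither was called, because the Paral1-siRNA array of experiment 3 lay within the range of experiment 1. *Cebpd*, an early factor, was higher in experiment 1, at 9.86 and 9.57 against 7.30 to 7.71 (difference 2.24 ± 0.15). *Cebpb*, the other early factor, was at 9.93 and 10.05, within the range of 9.42 to 10.12 of experiments 2 and 3, with a difference of 0.27. The lipin gene *Lpin1* (-2.52), the coactivator *Ppargc1b* (-1.56), *Klf9* (-1.55) and *Ebf1* (-1.14) were the 4 called lower.

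All 48 measured genes of mitosis had lower values in experiment 1. Of these, 22 were called lower and none was called higher, and their median was -0.90 with a range from -3.67 to -0.28. *Mki67*, the gene of the proliferation marker Ki-67, was at 8.39 and 8.61 in experiment 1, 12.98 and 12.16 in experiment 2 and 12.13 and 11.42 in experiment 3, a difference of -3.67 ± 0.37 or 12.8-fold. The mitotic motor gene *Kif11* was at 8.19 and 7.81, 11.29 and 10.98, and 10.62 and 10.10 (difference -2.75 ± 0.30). In both genes the experiment 1 arrays lay below all 4 others, but *Mki67* was used in choosing experiment 1. The arrays of experiments 2 and 3 were not separate for *Mki67*, where they came as near as 12.16 and 12.13. *Hmmr* (-2.55), the kinetochore motor gene *Cenpe* (-2.27), cyclin A2 (*Ccna2*, -1.98) and topoisomerase IIα (*Top2a*, -1.98) were also called lower. *Cdk1*, the kinase that starts mitosis, had a smaller difference of -0.58. The median value of the list was 7.36 in experiment 1, 9.08 in experiment 2 and 8.54 in experiment 3, against 5.58 to 6.19 at D9, so that experiment 1 still stood above each D9 experiment. *Ncapg2*, a condensin subunit outside the list, was also among the 20 largest decreases (-3.51 ± 0.53).

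Promoters of mitotic genes often hold a cell cycle homology region (CHR) near CCAAT boxes. The windows of *Mki67* and *Kif11* are shown because these genes had the largest differences of the list; each runs from 250 bases before to 50 bases after the RefSeq start (GRCm38.p6), and capitals mark TTTGAA and CCAAT on either strand. The *Mki67* window lies on the minus strand at chr7:135716330-135716629 and the *Kif11* window on the plus strand at chr19:37376132-37376431.
Mki67: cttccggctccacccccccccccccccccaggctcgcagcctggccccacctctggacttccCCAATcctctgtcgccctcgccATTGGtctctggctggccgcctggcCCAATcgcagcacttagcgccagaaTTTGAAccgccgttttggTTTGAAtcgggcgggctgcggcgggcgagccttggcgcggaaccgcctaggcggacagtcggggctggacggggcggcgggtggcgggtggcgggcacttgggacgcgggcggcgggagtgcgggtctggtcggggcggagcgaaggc
Kif11: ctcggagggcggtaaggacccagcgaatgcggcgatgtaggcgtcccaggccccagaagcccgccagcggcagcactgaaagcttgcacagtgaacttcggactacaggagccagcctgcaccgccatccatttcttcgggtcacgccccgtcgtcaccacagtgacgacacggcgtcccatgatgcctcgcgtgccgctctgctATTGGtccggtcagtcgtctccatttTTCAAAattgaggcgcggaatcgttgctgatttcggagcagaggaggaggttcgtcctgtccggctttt
Of 43 promoters of 39 mitosis genes, 69.8% held TTTGAA and 76.7% held CCAAT, against 17.9% and 37.4% of all 32851 promoters. The letters TTTCGCGC or TTTGGCGC, searched as an E2F motif, were in 25% of 48 promoters of the DNA replication genes and in 0.813% of all promoters. Across all promoters of genes called lower, 16.1% held TTTGAA and 38.3% held CCAAT. All motifs were searched on both strands, and a match describes the letters in the window only.

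Of 48 DNA replication genes measured, 40 had negative differences, 6 were called lower and none higher, and the median was -0.32. Of the 48, 46 were above the brightest background probe set on at least 1 D2 array. The share called lower was 4.39% of all genes but 12.8% of protein-coding genes with a mean D2 value above 6.5. The 6 calls are near the latter share, and nothing is read from their number. The ribonucleotide reductase subunit *Rrm2* (-1.84), cyclin E2 (*Ccne2*, -1.29), the helicase subunit *Mcm4* (-1.23) and the polymerase subunit *Pola1* (-1.14) had the largest differences. The G1 list of 24 cyclins, inhibitors and pocket proteins had a median of 0.03, with *Rb1*, *Ccnd2* and *Rbl1* called lower (-1.53, -1.34 and -1.14).

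Replication-dependent histone genes encode the bulk histones made in S phase, and their mature mRNAs end in a stem loop rather than a poly(A) tail. Of 28 histone genes measured, 9 were called higher and none lower, with a median of 0.85. *H2ac19* was at 7.00 and 7.20 in experiment 1, 5.78 and 6.00 in experiment 2 and 5.34 and 5.96 in experiment 3 (difference 1.33 ± 0.15). The linker histone gene *H1f5* was at 9.03 and 8.98, 8.92 and 7.51, and 7.45 and 6.88, so its Ctrl-siRNA array of experiment 2 lay close to experiment 1. The medians of the mitosis and histone lists thus had opposite signs on the same arrays. The *H2ac19* window (minus strand, chr3:96240325-96240624) is shown with its 2 matches to the letters CCAAT in capitals. They lie at -15 and 14 from the RefSeq start. CCAAT was in 96.0% of the 25 histone promoters found.
H2ac19: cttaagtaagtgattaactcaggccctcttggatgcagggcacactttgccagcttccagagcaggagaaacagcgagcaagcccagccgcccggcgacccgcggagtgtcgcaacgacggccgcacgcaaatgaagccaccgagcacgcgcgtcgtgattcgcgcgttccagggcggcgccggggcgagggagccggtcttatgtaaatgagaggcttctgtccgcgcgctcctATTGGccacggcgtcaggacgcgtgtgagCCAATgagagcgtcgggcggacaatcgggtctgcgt
*Cidec* was looked up as the adipocyte gene with the largest difference among those with a promoter in the RefSeq table. It has 2 windows there, and the second is not described. The first held neither CCAAT nor the C/EBP-like letters TTGCNNAA. The latter were in 15.0% of 20 white adipocyte promoters and 10.8% of all promoters.

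**Figure D2:**
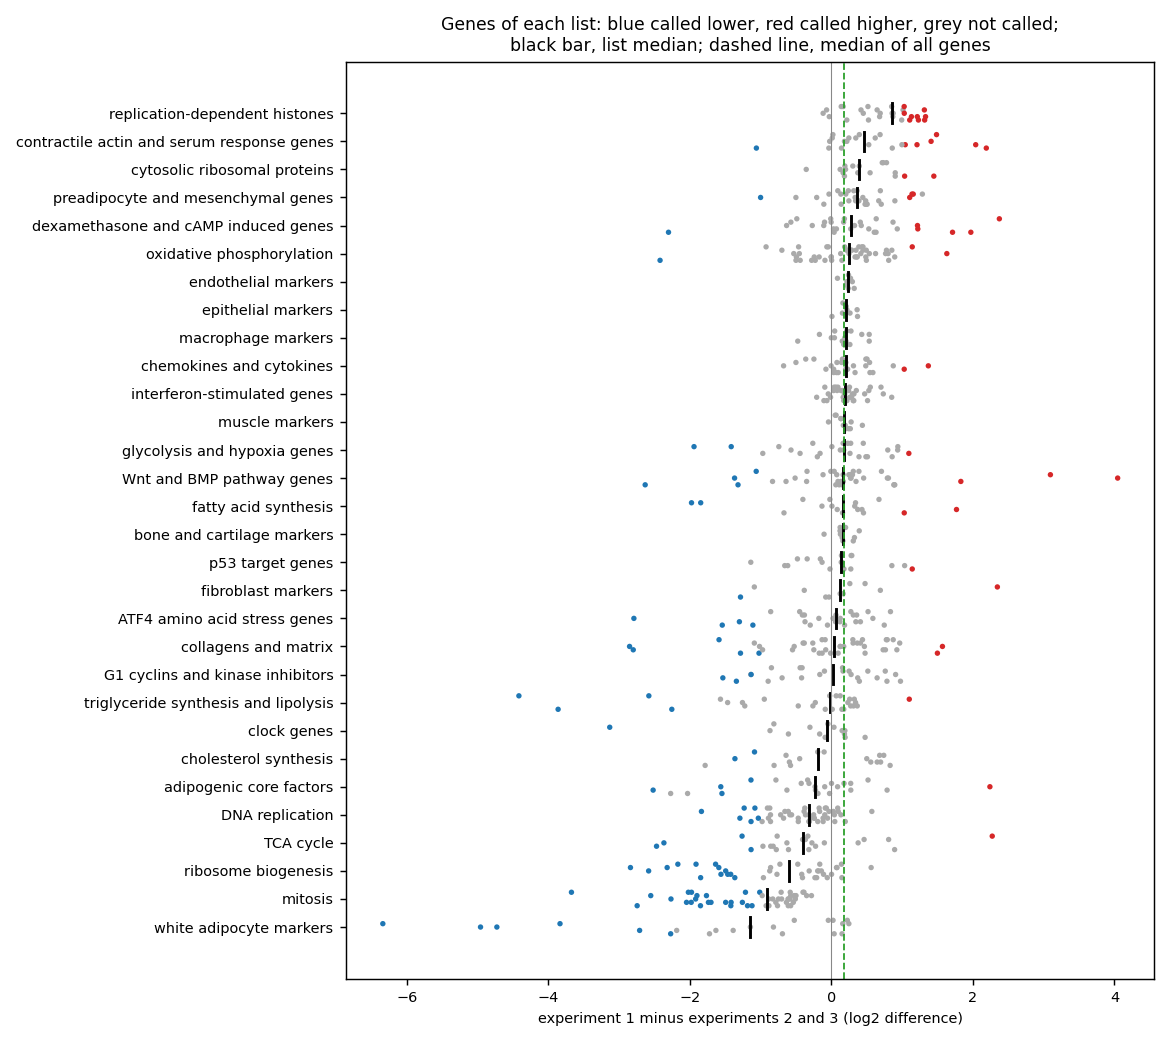
Log2 difference of experiment 1 from experiments 2 and 3 (horizontal axis) for each gene of 30 lists (vertical axis), with blue for genes called lower, red for genes called higher and grey for the rest. The black bars mark list medians, from -1.15 for white adipocyte markers to 0.85 for replication-dependent histones, and the dashed line marks the median of all genes at 0.18.

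Of 36 ribosome biogenesis genes, 30 had negative differences, 13 were called lower and none higher, with a median of -0.60. Nucleolin (*Ncl*), which acts in rRNA transcription and processing, was at 11.73 and 11.36 in experiment 1, 14.74 and 14.75 in experiment 2 and 14.03 and 14.04 in experiment 3 (difference -2.84 ± 0.29). The siRNA made almost no difference to *Ncl* in experiments 2 and 3, and experiment 1 lay below all 4 arrays. The nucleolar helicase gene *Ddx21* (-2.58), the box C/D snoRNP gene *Nop58* (-2.32), *Nolc1* (-2.17) and nucleophosmin (*Npm1*, -1.64) followed. Of 17 cytosolic ribosomal protein genes with 1 symbol, 16 had positive differences, as had 22108 of all 30134 genes. Of the 17, 2 were called higher, *Fau* at 1.45 and *Rpl27* at 1.03, with a median of 0.39. A wider class of 264 genes and pseudogenes with symbols that start with *Rps* or *Rpl* was added after the values were seen. Of these, 55 were called higher and 1 lower, against 3.25% and 4.39% of all genes, with a median of 0.64.

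Among 49 oxidative phosphorylation genes, 1 was called lower and 2 higher, against 4.39% and 3.25% of all genes, and the median was 0.25 against 0.18. These were cytochrome c (*Cycs*, -2.42), which was lower, and the complex I subunits *Ndufs8* (1.63) and *Ndufa2* (1.14), which were higher. The TCA cycle list of 23 genes had a median of -0.41, with 4 called lower and 1 higher. Among them, the isocitrate dehydrogenase subunit *Idh3a* (-2.47) and dihydrolipoamide dehydrogenase (*Dld*, -2.37) were lower, and *Pdk4*, a kinase that turns off pyruvate dehydrogenase, was higher at 2.27. All genes of both lists were above the brightest background probe set on at least 1 D2 array, against 13932 of all 30134. Calls varied with level. Among 8067 protein-coding genes with a mean D2 value above 6.5, split into 4 groups by that value, 2.83% of the dimmest and 24.3% of the brightest were called lower. Their medians were 0.08 and -0.31. The part of level in the list results was not tested.

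Several of the largest decreases belonged to none of these groups. The receptor gene *Lrig1* was at 10.44 and 9.07 in experiment 1, 15.59 and 13.52 in experiment 2 and 14.86 and 11.43 in experiment 3. The circadian activator *Clock* was at 10.92 and 10.28 against 13.36 to 13.99 (difference -3.13 ± 0.16), and none of the other genes in the list of 14 clock genes was called. The imprinted antisense RNA *Kcnq1ot1* was at 6.46 and 6.19 against 9.40 to 9.78 (difference -3.26 ± 0.16). These last genes had tight replicate values in experiments 2 and 3, with little difference between siRNAs. *Pip* (-3.89) was lower in experiment 1, at 10.65 and 9.17 against 12.86 to 14.60, and was between 4.01 and 4.85 at D9. The matrix genes *Postn* (-2.85) and *Col6a3* (-2.80), the coenzyme A synthesis gene *Pank3* (-3.27), the kinase gene *Hipk2* (-3.08) and the pseudogenes *Scp2-ps2* (-3.03) and *Hspd1-ps3* (-2.98) completed the 20 largest decreases. Probe sets of pseudogenes may also bind transcripts of their parent genes.

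The largest increase among the genes named by rule was in *Id2*, which encodes a helix-loop-helix protein that blocks bHLH transcription factors. It was at 13.62 and 13.05 in experiment 1, 9.05 and 10.19 in experiment 2 and 7.76 and 10.16 in experiment 3, a difference of 4.04 ± 0.61 or 16.5-fold. *Id3*, of the same family, was at 10.48 and 10.72, 7.46 and 7.91, and 7.11 and 7.55 (difference 3.09 ± 0.16). *Id1* also was higher, by 1.83 ± 0.56. All 3 are known targets of BMP signalling. The wider Wnt and BMP list of 39 genes had a median of 0.17 with 4 called lower and 3 higher, the 3 being these *Id* genes. *Lef1*, a transcription factor of the Wnt pathway, was lower at -2.63.

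The mRNA decay factor *Zfp36*, which is induced rapidly by serum and hormones, was at 12.90 and 13.02 in experiment 1, 9.75 and 10.09 in experiment 2 and 8.28 and 8.25 in experiment 3 (difference 3.87 ± 0.63). The immediate early gene *Ier2* was at 10.85 and 11.17 against 8.12 to 8.41 (2.75 ± 0.14). In the list of 29 genes induced by dexamethasone or cAMP, 5 were called higher and 1 lower with a median of 0.27. *Ddit4* (2.37), the phosphatase gene *Dusp1* (1.97) and the period gene *Per1* (1.71, which was not in the clock list), known glucocorticoid targets, were higher, and *Angpt1* (-2.30) was lower.

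*Mgp*, the matrix Gla protein gene, was at 13.58 and 13.36 in experiment 1 against 10.24 to 10.94 (difference 2.80 ± 0.20). The calcium-binding protein genes *S100a6* (2.65) and *S100a4* (2.34), annexin A2 (*Anxa2*, 2.33), the protease gene *Capn1* (2.62), the membrane protein genes *Emp1* (2.32) and *Emp3* (2.32), *Spon2* (2.48) and the homeobox gene *Msx1* (2.27) were all in the 20 largest increases, which *Aldh1a7* (3.87), *Lims2* (3.28), *Traj14* (3.06), *Zfp703* (3.00) and *Wbp1* (2.44) completed. *Aldh1a7* was at 9.86 and 10.11 in experiment 1 against 5.83 to 6.39, and at 11.63 to 14.90 at D9. Of 22 contractile actin and serum response genes, 6 were called higher and 1 lower with a median of 0.46. Smooth muscle actin (*Acta2*) was at 10.27 and 10.31 in experiment 1 against 7.41 to 8.44, and the secreted matrix protein gene *Ccn1* was at 13.58 and 13.36 against 10.68 to 12.48. Of 29 preadipocyte and mesenchymal genes, 5 had negative differences, as had 8026 of all 30134 genes. Of the 29, 3 were called higher and 1 lower, with a median of 0.36. The preadipocyte marker *Dlk1* was at 11.46 and 11.20 in experiment 1, 10.63 and 10.76 in experiment 2 and 9.59 and 9.77 in experiment 3. *Sox9* (1.16) and *Twist2* (1.11) were also called higher, but *Sox9* was at 11.14 with Paral1-siRNA in experiment 1 and at 11.09 with Ctrl-siRNA in experiment 2. *Osr1* had the largest difference of the list (1.285) but was not called, because its groups overlapped. *Zeb1* was called lower, just past the threshold.

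**Figure D3:**
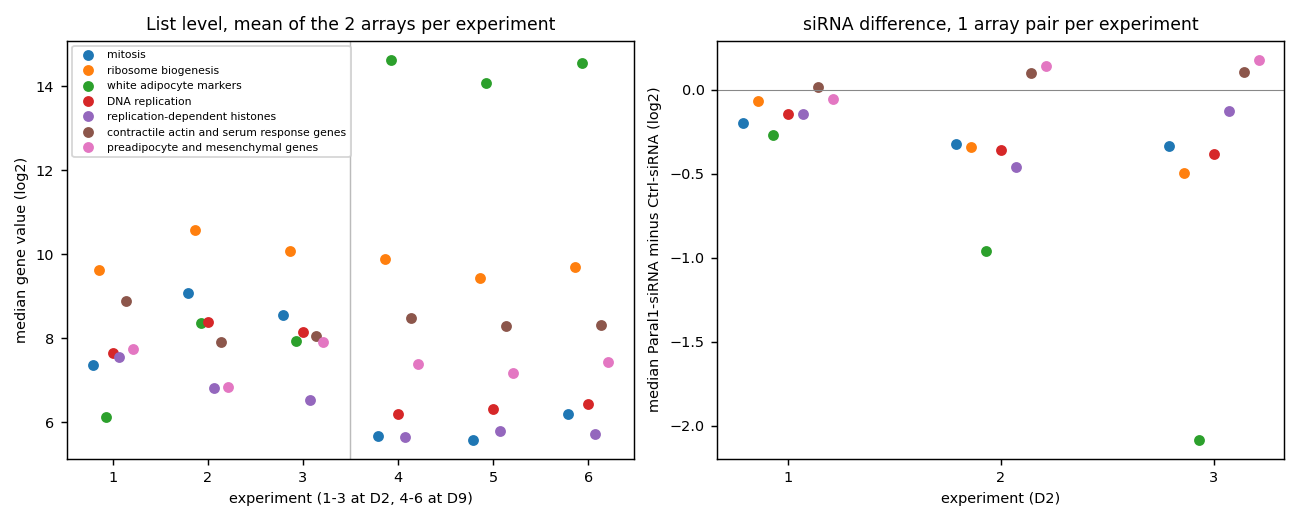
Median log2 value of 7 gene lists in each experiment (left; experiments 1 to 3 at D2 and 4 to 6 at D9, mean of the Ctrl-siRNA and Paral1-siRNA arrays) and median log2 difference between the Paral1-siRNA and Ctrl-siRNA arrays of each D2 experiment (right). The mitosis list had a median of 7.36 in experiment 1 and 9.08 and 8.54 in experiments 2 and 3, and the siRNA difference of the white adipocyte list was -0.27, -0.96 and -2.08.

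Of 11 fibroblast markers, 10 were above the brightest background probe set on at least 1 D2 array, as 3T3-L1 cells are fibroblast-like, with a median of 0.12, *S100a4* called higher and *Lum* (-1.29) called lower. None of 9 endothelial, 10 bone and cartilage and 8 epithelial markers, 2 of 17 macrophage markers and 2 of 12 muscle markers were above the background. Their medians were 0.16 to 0.24, near that of all genes, and none was called. Of 35 interferon-stimulated genes, which can respond to transfected RNA, 12 were above the background on at least 1 D2 array. None of the 35 was called in either direction, with differences from -0.21 to 0.85 and a median of 0.19. In the list of 28 chemokines and cytokines, *Csf1* (1.37) and *Cxcl1* (1.03) were called higher, and among 18 p53 target genes *Phlda3* (1.14) was. The medians of these lists were 0.20 and 0.14, near the 0.18 of all genes, of which 3.25% were called higher. The lists of glycolysis and hypoxia genes, ATF4 targets, fatty acid synthesis, cholesterol synthesis and collagens had medians of 0.17, 0.06, 0.16, -0.19 and 0.04.

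Small nuclear and nucleolar RNAs were examined as groups chosen after their values were seen. Most small nucleolar and small Cajal body RNAs guide chemical changes on ribosomal and spliceosomal RNAs, and many are cut from introns, whereas most small nuclear RNAs are components of the spliceosome. Of 44 C/D box snoRNA genes (*Snord*), 35 were called higher and none lower, with a median of 2.02. *Snord61* was at 17.71 and 17.16 in experiment 1, 12.48 and 13.70 in experiment 2 and 14.51 and 14.68 in experiment 3, and *Snord111* was at 16.50 and 16.52, 11.36 and 12.86, and 13.20 and 14.19. These classes had positive medians under each scaling tried, with the *Snord* median between 1.83 and 2.43. Of 6 small Cajal body RNA genes 5 were called higher, as were 6 of 17 H/ACA box snoRNA genes (*Snora*) and 8 of 15 genes named *Rnu*. The called *Rnu* genes were *Rnu11*, *Rnu12*, *Rnu5g* and the U3 genes *Rnu3a* and *Rnu3b1* to *Rnu3b4*, and U3 is not a spliceosomal RNA. None of the U1, U2 and U6 genes was called, with *Rnu1a1* at 0.30, *Rnu1b1* at 0.91, *Rnu2-10* at 0.70 and *Rnu6* at 0.49. The genes *Rnu3b1*, *Rnu3b2* and *Rnu3b3* had identical values on all 12 arrays, so the *Rnu* genes held 13 distinct measurements, of which 6 were called higher. Over the RefSeq biotypes, 13.7% of 953 snoRNA genes and 8.09% of 915 snRNA genes were called higher, against 2.40% of 19086 protein-coding genes. The highest *Snord* values in experiment 1 lay near the top value of its arrays, 19.47 and 19.49, where the other arrays reached 19.93. The part of this upper limit in the pattern was not tested.

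**Figure D4:**
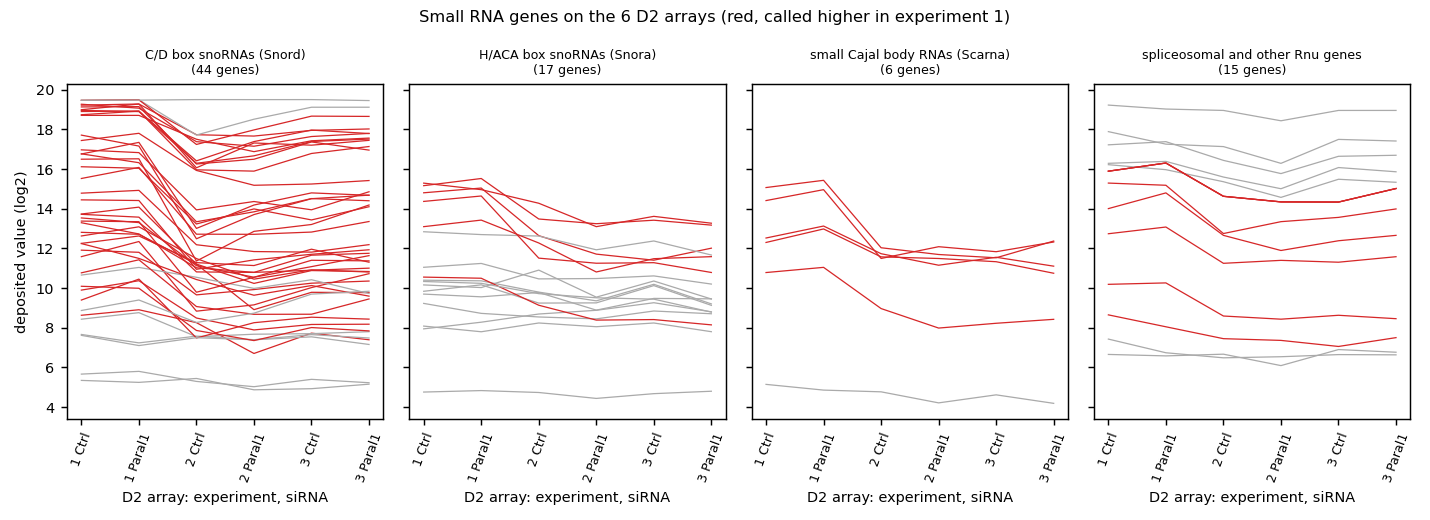
Log2 values (vertical axis) of small RNA genes on the 6 D2 arrays (horizontal axis; experiment and siRNA), with a line joining the values of each gene and red for genes called higher in experiment 1. The 44 *Snord* genes had a median difference of 2.02 and the 17 *Snora* genes of 0.71.

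Genes of miRNAs showed no common direction, with 22 called lower and 20 higher of 582 and a median of 0.10, which was -0.08, -0.10 and -0.12 with the arrays quantile-normalized again, centred, or centred and scaled. The probe sets measure the miRNA genes and not mature miRNAs, and 249 of 582 were above the brightest background probe set on at least 1 D2 array. Sequences are shown for genes of 1 cluster with negative differences and for 1 miRNA whose genes had differences of opposite sign, both chosen after their values were seen, and capitals mark the seed (bases 2 to 8).
miR-99a-5p: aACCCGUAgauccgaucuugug
let-7c-5p: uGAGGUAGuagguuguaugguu
miR-125b-5p: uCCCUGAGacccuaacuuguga
Mature miR-99a-5p lies at chr16:77598940-77598961 and let-7c-5p at chr16:77599672-77599693 (GRCm38.p6, RefSeq, plus strand), and the *Mir125b-2* copy of miR-125b-5p at chr16:77646279-77646300. *Mir99a* was at 4.28 and 4.24 in experiment 1, 6.5 and 6.69 in experiment 2 and 8.36 and 8.85 in experiment 3 (difference -3.34 ± 0.76). *Mirlet7c-1* had a difference of -2.04 and *Mir125b-2* of -2.57. Among the D2 arrays, each of these 3 genes was above the brightest background probe set only on the 2 arrays of experiment 3. The lower values thus do not order experiments 1 and 2, and the sizes of these differences are uncertain. The second gene of miR-125b-5p, *Mir125b-1* at chr9:41581940-41581961, gave the opposite direction, at 8.13 and 8.41 in experiment 1 against 5.55 to 6.65 (difference 2.28). It was above the brightest background probe set on 3 of the 6 D2 arrays, so the size of its difference is uncertain too. The 2 genes hold the same mature sequence at different loci.

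Differences also varied with the genomic length of a gene, which was examined after the values were seen. Among 8067 protein-coding genes with a mean D2 value above 6.5, split into 4 groups of near-equal size by genomic span, the shortest group (up to 11478 bases) had a median difference of 0.33, and the longer groups had medians of -0.02, -0.25 and -0.37. The share called lower was 4.16%, 7.73%, 17.3% and 22.2% from the shortest to the longest group, and the share called higher was 11.4%, 4.56%, 2.83% and 1.93%. The difference between experiments 2 and 3 had medians of 0.05, 0.07, 0.05 and 0.03 in the same groups. Among the 2017 brightest of these genes the order held, with 8.50%, 17.4%, 30.5% and 37.3% called lower. Of 48 mitosis genes, 47 lay below the median of their own span group, as did all 12 white adipocyte markers and 33 of 36 ribosome biogenesis genes that passed the level. These counts use the contrast that chose experiment 1, and the lists hold *Mki67* and *Fabp4*, so nothing is inferred from them. The level filter, which includes experiments 2 and 3, kept 12 of 21 white adipocyte markers, with a median of -2.23 against -1.15 for the 21. The part of gene length in the list differences was not tested.

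**Figure D5:**
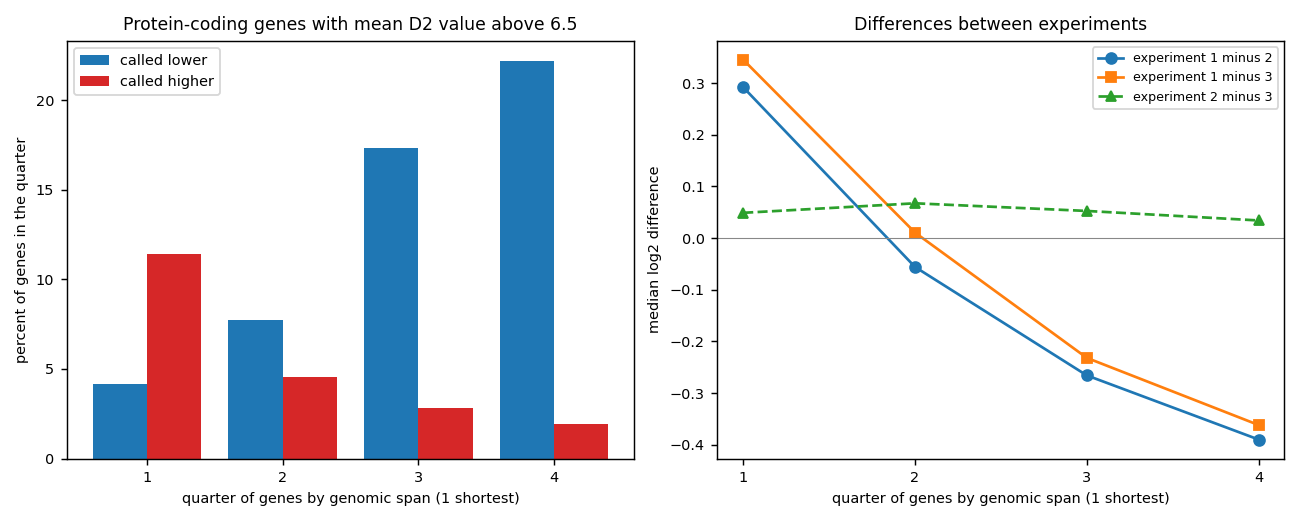
Share of genes called lower or higher in experiment 1 (left; percent of the genes in each group) and median log2 differences between experiments (right) for 8067 protein-coding genes in 4 groups by genomic span (horizontal axis, 1 shortest). The share called lower ran from 4.16% to 22.2% and the share called higher from 11.4% to 1.93%, whereas the medians of experiment 2 against 3 lay between 0.03 and 0.07.

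The D9 arrays were not used to choose experiment 1. Of the 1323 genes called lower, 1054 (79.7%) were above both experiment 1 arrays on all 6 D9 arrays, against 20.7% of all genes. On the 6 D9 arrays 280 (21.2%) also exceeded all 4 arrays of experiments 2 and 3 and 376 (28.4%) lay below all 4, shares near the 18.4% and 27.6% of all genes. Of the 980 genes called higher, 734 (74.9%) were below both experiment 1 arrays on all 6 D9 arrays, against 48.0% of all genes. A gene that is extreme in experiment 1 is more likely to be exceeded by other arrays, and this was not corrected. Lipid genes stood in the first group, since *Lpl* was between 17.74 and 18.07 at D9, whereas *Mki67*, at 6.22 to 8.71 on the D9 arrays, overlapped experiment 1 and lay below experiments 2 and 3.

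Experiments 2 and 3 were compared with a test in limma, since they were not set against each other in choosing experiment 1. *Anxa8* (1 gene, 0.00332%) passed an adjusted p of 0.05, at 14.79 and 13.85 in experiment 2 against 10.30 and 8.66 in experiment 3 (log2 difference 4.84, adjusted p = 0.0295, limma), with 3346 genes (11.1%) at an unadjusted p under 0.05. The number that passed was 0 without the arrays of experiment 1, 82 with a filter on dim probe sets and 418 with all 12 arrays in the fit. Among those 3346, the largest differences toward experiment 2 after *Anxa8* were in the lipase gene *Pnpla2* (2.84), *Fam107a* (2.64), *Cidec* (2.53) and *Krt9* (2.47), with adjusted p-values of 0.0892 to 0.26. The largest toward experiment 3 were in the matrix genes *Dpt* (-4.37), *Dcn* (-3.83) and *Prg4* (-3.59), with *Pi15* (-3.84) and *Capn6* (-2.93), and their adjusted p-values were 0.0892 to 0.0945. The median of experiment 2 minus experiment 3 was 0.40 for the mitosis list and 0.42 for the white adipocyte list.

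Whether the siRNA difference itself was unlike in experiment 1 was asked with an interaction in limma. This fit did not pair the arrays of 1 experiment, and a fit with that pairing as a block is given in the last section. No gene passed (0%, with 1924 or 6.38% at an unadjusted p under 0.05), and the lowest adjusted p was 0.748. With 1 pair of arrays in experiment 1, a p above the threshold does not show that the siRNA acted alike. Within experiment 1, 155 genes (0.514%) differed by 2-fold between siRNAs, against 438 (1.45%) and 469 (1.56%) in experiments 2 and 3. The median siRNA difference of the white adipocyte list was -0.27 in experiment 1 and -0.96 and -2.08 in experiments 2 and 3, and that of the mitosis list was -0.20, -0.32 and -0.34. The median level of the white adipocyte list was 6.11 in experiment 1, against 8.36 and 7.93 in experiments 2 and 3. The brightest background values of the experiment 1 arrays were 6.63 and 5.84, so a decrease there may be hidden. The part of this limit was not tested. Among genes at an unadjusted p under 0.05, *Pip* had a negative interaction (-3.06), being lower with Paral1-siRNA in experiment 1 (10.65 and 9.17) and higher in experiments 2 and 3 (12.86 and 14.60, 13.17 and 14.58). *Id2* had the same direction (-2.34), with 13.62 and 13.05 in experiment 1 and an increase with Paral1-siRNA in the others. *Pdcd4* (-1.92), *Zfp768* (1.46) and *Fam110c* (1.44) were also among the genes with the largest interactions, and their adjusted p-values were all 0.748.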

How the data were processed

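Before deposit, the authors adjusted probe intensities for GC content (GCCN) and signal space (SST) in Affymetrix Expression Console 1.4.1 and summarised them by RMA to 1 deposited log2 value per transcript cluster. The methods name Partek for RMA and the labels Expression Console, and no source used here tells whether D2 and D9 arrays went through it jointly. The deposited log2 values were used without further normalization. Of 65770 transcript clusters, 30473 had 1 symbol in the platform annotation; 30134 genes resulted, 255 under an updated symbol, and the probe set with the highest mean over the 12 arrays was kept for 254 genes with several. Differences and standard errors came from lmFit and eBayes (limma 3.58.1, R 4.3.3), tests with Benjamini-Hochberg adjustment. Fits were tested on simulated data.

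The members, the 30 lists and the comparisons were chosen with earlier results of these data known. Genes were named as the 20 largest differences per direction among genes without overlap (predicted models and small RNAs were passed over, 7 lower and 65 higher), up to 4 per list, and the largest changes in both tests. Other named list members were chosen after their values were seen. The arrays of 1 experiment number pair: the deviations of its Ctrl-siRNA and Paral1-siRNA arrays correlated at 0.863, 0.770 and 0.707 over 15067 genes. Nothing else in the sources says whether cultures were separate, so p-values reflect the spread among these arrays, which may be technical and is measured on few arrays.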

Additional observations from a re-analysis of the deposited data

Results flagged for a closer look

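For 7 lists, the median difference between Paral1-siRNA and Ctrl-siRNA had the opposite sign in experiment 1 to that in both experiments 2 and 3, and this difference was not tested. The medians in experiment 1 were -0.054 for preadipocyte and mesenchymal genes, -0.0072 for interferon-stimulated genes, -0.0521 for Wnt and BMP pathway genes, -0.0255 for macrophage markers, -0.067 for endothelial markers, -0.0595 for muscle markers and -0.0162 for bone and cartilage markers. All 7 were small, and the median over all genes was -0.03 in experiment 1 and 0.03 and 0.05 in experiments 2 and 3.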

How the results depend on the processing

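The 1323 lower and 980 higher genes became 493 and 300 at a log2 difference of 1.5. The higher genes became 596 after median centring, 1664 after median centring and scaling, and 459 among protein-coding genes only. With each of the 4 span groups of protein-coding genes centred on its median, 713 were lower and 406 higher, a setting on fewer genes that, like the protein-coding setting, was chosen after seeing the data. Leaving out each array in turn gave 1240 to 1553 lower and 925 to 1258 higher genes. The 40 genes with the largest differences kept their sign under all 15 alternatives. List medians kept their sign under the same 15 alternatives for 12 of 30 lists, mitosis (-1.10 to -0.78), ribosome biogenesis (-0.85 to -0.37), white adipocyte markers (-1.96 to -0.54) and histones (0.52 to 1.01) among them. For experiments 2 and 3, the count of 1 gene became 82 with the filter on dim probe sets, 418 with all 12 arrays in 1 fit, 2 with a trend and robust prior, and 0 after median centring, after median centring and scaling and without the arrays of experiment 1; the cause was not tested. The interaction stayed at 0 genes, also with the replicate block (0 genes, lowest adjusted p = 0.476). The block was fitted for the interaction alone, because the experiment number is itself what the other comparisons contrast.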
